A study of Mus musculus musculus x M. m. domesticus and Mus musculus domesticus and Mus musculus with 12 samples.

Results

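In the testis of hybrid house mice, 93 of 7000 measured genes lay at least 0.1 log2 units outside the range of both parental species in every hybrid male, whichever species was the mother. They were chosen by 1 rule on the log2 expression values: each of the 6 hybrid males had to lie at least 0.1 log2 units below the lowest, or above the highest, of the 6 within-species males. The rule found 68 genes below both species and 25 above both species. A further gene above, Adh1, also met the rule with a distance of 0.16 and was left out by its terms. Because these values selected the genes, the distance between hybrids and species is given as a description and is not tested.

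The 12 males were F1 males aged 60 days, 3 of each of 4 genotypes, and each cross is written with the mother's strain before the father's. Within species, LEWES/EiJ x WSB/EiJ gave *DxD* (*M. domesticus*) and PWK/PhJ x CZECHII/EiJ gave *MxM* (*M. musculus*). The reciprocal hybrids were the fertile *DxM* (LEWES/EiJ x PWK/PhJ) and the sterile *MxD* (PWK/PhJ x LEWES/EiJ), which carry the same autosomal strains but differ in which species gave the X chromosome, the Y chromosome and the mitochondria. WSB/EiJ and CZECHII/EiJ alleles occur in the within-species males and in no hybrid, so hybrid origin and the absence of these alleles cannot be told apart. No within-species male was a parent of a hybrid. RNA of whole testis was hybridised to 1 Affymetrix Mouse Genome 430 2.0 array per male, with probes taken from laboratory mouse sequence, largely of *M. domesticus* origin. The paper's histology found fewer germ cells in *MxD* testes, with postmeiotic cells greatly reduced, while spermatogenesis looked normal in the fertile genotypes. In such bulk tissue, fewer cells of a type and less RNA per cell cannot be told apart.

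A gene whose regulation is additive is read in an F1 hybrid near the mean of its 2 parental types. Expression below both parents is called underdominant and expression above both overdominant, and such values are a class of misexpression studied in hybrid sterility. The testis holds dividing spermatogonia, meiotic spermatocytes, postmeiotic spermatids and somatic cells such as Sertoli and Leydig cells, so its RNA is a mixture of cell types. The deposited values name genes by Ensembl ID and do not pair them with symbols, so genes are given by ID and their functions are not described.

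The hybrids differed from the mid-species value, the mean of the *DxD* and *MxM* means, by modest amounts in most of the 68 genes below. The mean of the 6 hybrid males was 0.28 to 1.55 log2 units under the mid-species value, with a median of 0.54, or 1.45-fold. It was at least 0.5 log2 units under it in 42 genes and at least 1 unit under it in 3. Both hybrids were at least 0.5 log2 units under it in 24 genes. In the 25 genes above, the hybrid mean was 0.22 to 0.83 log2 units over the mid-species value, with a median of 0.45, or 1.36-fold, and 9 genes reached 0.5. Over all 7000 genes the median size of the same difference was 0.12. The 0.83 was that of ENSMUSG00000025203, where *MxM* replicate 3 read 6.81 and the other *MxM* males 9.22 and 9.17. That male lowered the mid-species value and so raised the difference.

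The males of a genotype had similar medians over these genes, where the rule fixed the side of the hybrids. Such medians hide the spread within single genes, such as an SD of 1.38 among *MxM* males in ENSMUSG00000025203. For the genes below, the median value minus the mid-species value was -0.03, -0.04 and -0.03 in the 3 *DxD* males and -0.03, 0.01 and 0.10 in the 3 *MxM* males. It was -0.48, -0.46 and -0.42 in the *DxM* males and -0.64, -0.58 and -0.65 in the *MxD* males. For the genes above, it ran from -0.02 to 0.05 in the within-species males, from 0.33 to 0.39 in the *DxM* males and from 0.46 to 0.54 in the *MxD* males. On both sides the sterile hybrid stood further from the species than the fertile one.

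**Figure D1:**
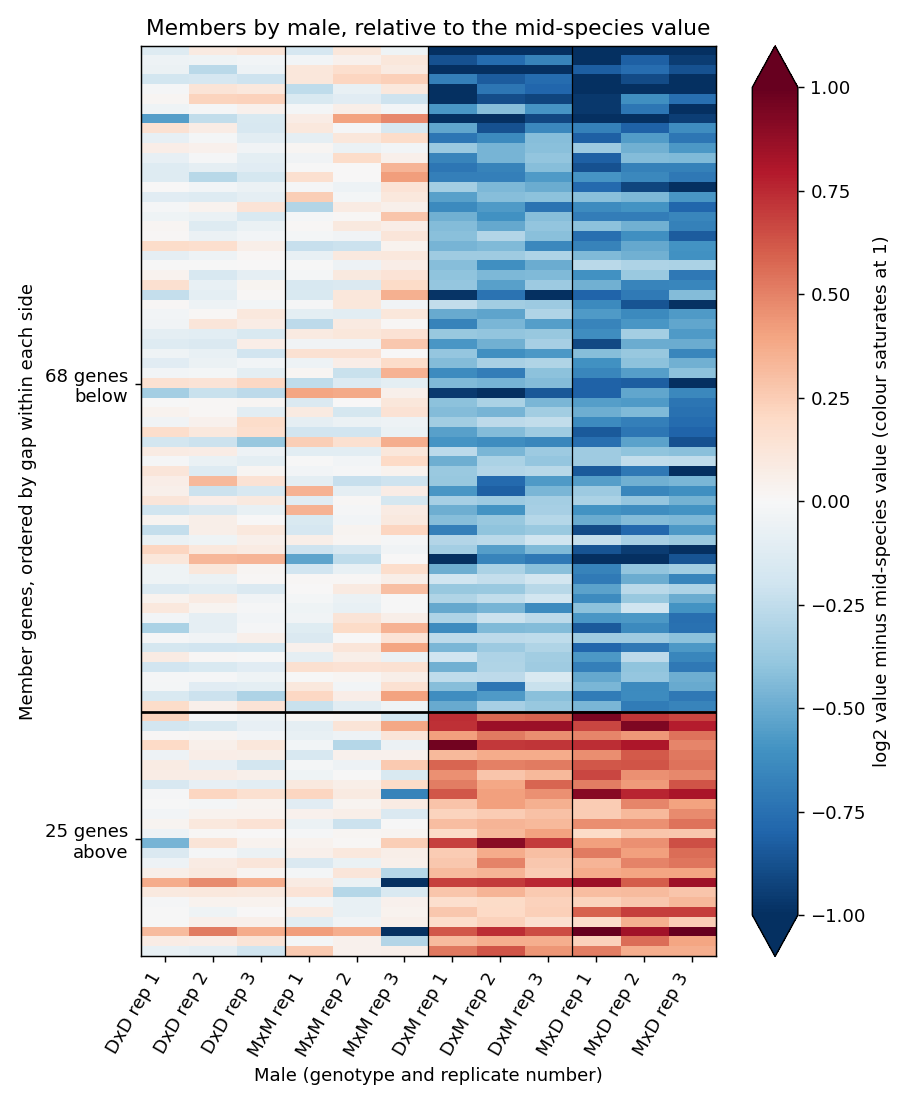
Each row is 1 of the 68 genes below or 25 genes above, ordered by distance within each side, and each column is 1 male. Colour gives the log2 value minus the mid-species value, saturating at 1 log2 unit. The 6 hybrid columns are blue in every row below and red in every row above, as the rule requires, and *MxM* replicate 3 is the within-species male with the darkest blue cells among the genes above.

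The distance between the nearest hybrid male and the nearest within-species male is called the gap. It was 0.10 to 1.03 log2 units for the genes below, with a median of 0.18, and 0.10 to 0.35 for those above, with a median of 0.16. A gap of at least 0.2 was found for 25 genes below and 7 above. The members just inside the margin had gaps of 0.103 below and 0.101 above, and the genes just outside it had gaps of 0.0989 and 0.0969. With any gap over 0 there were 218 genes below and 98 above, so the number depends on the margin.

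The widest gap below belonged to ENSMUSG00000027827, on chromosome 3, whose highest induction is stated to be in meiotic cells. Log2 values in the *DxD* males were 6.89, 7.11 and 7.15 against 6.85, 7.13 and 6.98 in the *MxM* males. Those of the hybrids were 5.09, 5.17 and 5.14 for *DxM* and 5.80, 5.82 and 5.78 for *MxD*. Every hybrid male lay over 1 log2 unit under every within-species male, and the fertile *DxM* males were the lowest. The hybrid mean was 2.93-fold under the mid-species value. It is among the dimmest 25% of genes.

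The next, ENSMUSG00000024728, is a brighter gene. The 3 *DxD* males read 9.94, 9.95 and 9.97 on the log2 scale, and the *MxM* males 9.97, 10.04 and 10.11. Among hybrids, *DxM* read 9.13, 9.22 and 9.33 and *MxD* 8.85, 9.18 and 9.05. The within-species males lay close together and the hybrids of the 2 crosses overlapped. The hybrid mean was 1.83-fold under the mid-species value, and *MxD* minus *DxM* was -0.20 ± 0.09 (SE, n = 3 males per genotype; limma, adjusted p = 0.21).

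Above both species, ENSMUSG00000066705 had the widest gap, 0.35. On the log2 scale the *DxD* males stood at 7.75, 7.51 and 7.47, and the *MxM* males at 7.53, 7.54 and 7.34. The *DxM* hybrids stood at 8.26, 8.09 and 8.12, and the *MxD* hybrids at 8.47, 8.24 and 8.19. The 2 hybrid genotypes overlapped, as did the 2 within-species genotypes. The hybrid mean was 1.63-fold over the mid-species value.

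ENSMUSG00000019791 followed with a gap of 0.29. Log2 values in the *DxD* males were 8.11, 8.14 and 8.21 against 8.20, 8.43 and 8.68 in the *MxM* males. Those of the hybrids were 9.03, 9.16 and 9.15 for *DxM* and 8.97, 9.23 and 9.08 for *MxD*. The *MxM* males were the most spread, and the hybrid mean was 1.75-fold over the mid-species value. The hybrid genotypes overlapped and differed by -0.02 log2 units (limma, adjusted p = 0.96).

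**Figure D2:**
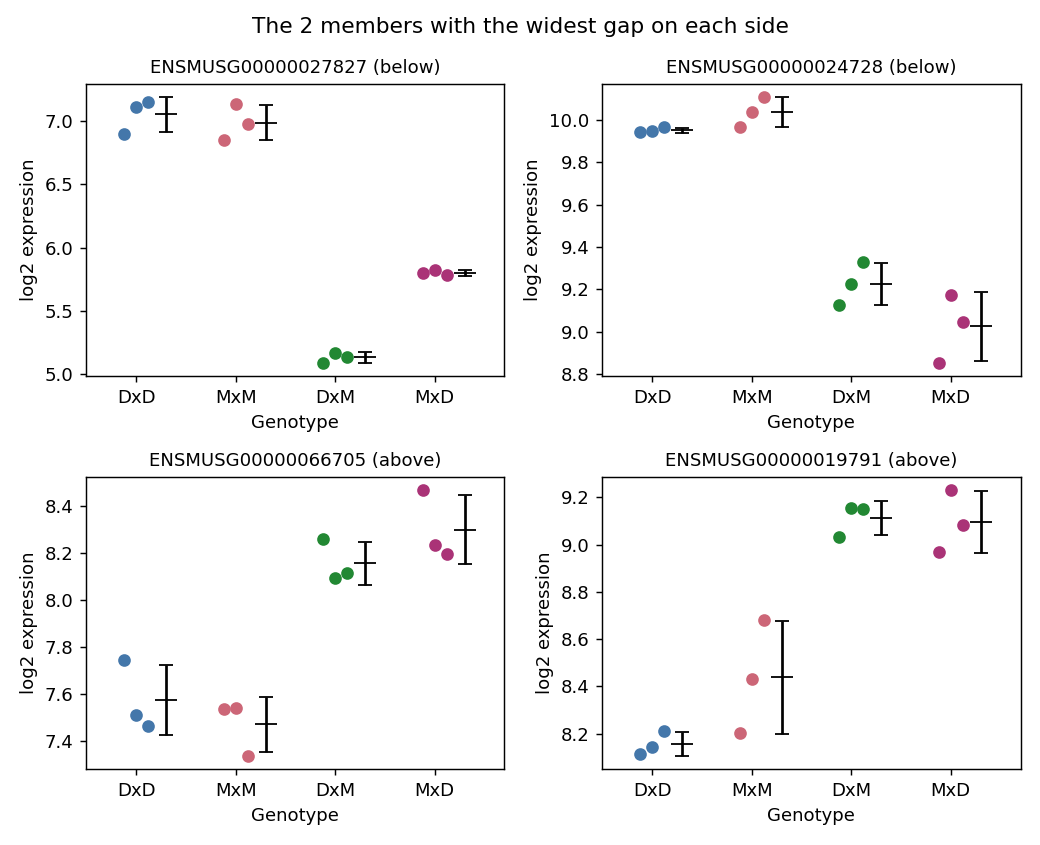
Log2 expression of the 2 genes with the widest gap below (upper panels) and above (lower panels). Points are males, horizontal lines are genotype means and bars are ± 1 SD (n = 3). In ENSMUSG00000027827 the *DxM* males, at 5.09 to 5.17, are under the *MxD* males, at 5.78 to 5.82, while in the other 3 genes the hybrid genotypes overlap.

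The genes below and above differed in brightness. The median level of the *DxD* and *MxM* means was 7.95 for genes below and 8.80 for genes above, against 8.12 over all genes. Of the genes below, 25 (36.8%) were in the dimmest 25% of genes and 5 (7.35%) in the brightest 25%. None of the genes above was in the dimmest 25%, and 12 (48.0%) were in the brightest. The lowest value of a gene below in any male was 4.83, where the lowest value on the arrays was 3.08.

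Whether the pattern recurs in males that the rule did not use was read by applying the rule to the 8 males of 2 replicate numbers and counting, in the remaining 4 males, how often both hybrids lay beyond both species. Of 172 genes chosen below without replicate 1, 155 (90.1%) kept the order in the replicate 1 males, where 19.7% of all genes had it. The shares below were 121 of 136 (89.0%) for replicate 2, against 17.5% of all genes, and 122 of 140 (87.1%) for replicate 3, against 18.9%.

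The genes chosen above held it less evenly. The order recurred in 55 of 62 (88.7%) for replicate 1, against 18.1% of all genes, and in 46 of 54 (85.2%) for replicate 2, against 17.4%. For replicate 3 it recurred in 54 of 105 (51.4%), against 11.8%. *MxM* replicate 3 stood apart: 131 genes were at least 1 log2 unit lower in it than in every other male, 2 of them among the 25 genes above and 0 among the 68 below. Read without that male, the share for replicate 3 was 92 of 105 (87.6%) above, where 34.9% of all genes had the order of the remaining 3 males, and 134 of 140 (95.7%) below, against 36.0%. When that male was left out of the rule altogether, 44 genes lay above, and 39 did so without *DxM* replicate 1. The same-numbered males share some variation across genotypes, so the 4 left-out males are not fully separate from each other.

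**Figure D3:**
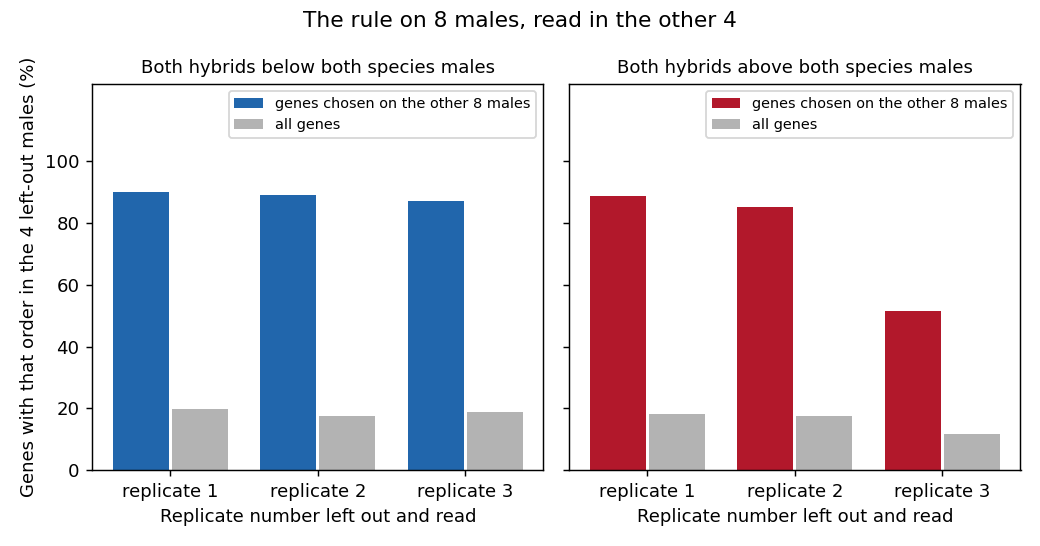
Percentage of genes in which both hybrid males lay below (left) or above (right) both within-species males of 1 replicate number. Coloured bars are genes chosen by the rule on the other 8 males and grey bars are all genes. Coloured bars run from 85.2% to 90.1%, except for genes above in replicate 3, at 51.4%.

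The reciprocal hybrids were compared next. *MxD* against *DxM* is not the contrast the rule set, but it is read from the same hybrid values that the rule used. The sterile *MxD* mean was further from the species than the *DxM* mean in 56 of 68 genes below (82.4%) and in 20 of 25 above (80.0%). Over all genes, 50.1% and 49.9% had *MxD* on that side of *DxM*. Those shares are not limited to genes in which the hybrids depart from the species, so they are not a matched comparison. Within the genes below, the median *MxD* mean was 0.61 log2 units under the mid-species value and the median *DxM* mean 0.45 under it. Above, the medians were 0.49 and 0.35 over it. The hybrids were within 0.1 log2 units of each other in 21 genes below and 13 above. Among the genes below, the hybrid male nearest to the species was a *DxM* male in 52 and an *MxD* male in 16.

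Of the 68 genes below, 15 (22.1%) differed between the hybrids (limma, Benjamini-Hochberg adjusted at 5%), against 6.5% of all genes. They comprised 13 lower in *MxD*, against 3.5% of all genes, and 2 higher in *MxD*, against 3% of all genes. Of the 25 genes above, 1 (4%) differed, higher in *MxD*. When replicate numbers entered the fit as blocks, 21 genes below (30.9%) and 2 above (8%) differed, against 17.2% of all genes. The rule favours genes whose males of a genotype lie close together, which makes a difference between hybrids easier to call. The count below was 9 without *DxM* replicate 2 or *DxM* replicate 3 and 8 without *MxD* replicate 3, and the count above was 3 without *MxM* replicate 3. Over all genes those fits called 254, 206, 172 and 667, against 455 in the main fit.

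Among the genes below that differed, ENSMUSG00000032802 fell furthest in *MxD* relative to *DxM*. The 3 *DxD* males read 7.93, 7.89 and 7.86 on the log2 scale, and the *MxM* males 7.91, 7.87 and 8.06. Among hybrids, *DxM* read 7.58, 7.47 and 7.43 and *MxD* 7.14, 7.0 and 6.65. *MxD* minus *DxM* was -0.56 ± 0.11 (SE, n = 3 males per genotype; limma, adjusted p = 0.013), and the hybrid genotypes did not overlap. The call was lost without *DxM* replicate 1, at -0.52 (adjusted p = 0.056).

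ENSMUSG00000022938 behaved alike, with values of 8.39, 8.14 and 8.28 in *DxD* and 8.24, 8.26 and 8.30 in *MxM*. They were 7.90, 7.98 and 7.99 in *DxM* and 7.43, 7.55 and 7.21 in *MxD*. All *MxD* males were under all *DxM* males, by -0.55 ± 0.09 on average (SE, n = 3 males per genotype; limma, adjusted p = 0.006). The within-species genotypes overlapped.

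The gene with the widest gap, ENSMUSG00000027827, ran the other way. It was 0.67 ± 0.09 log2 units higher in *MxD* than in *DxM* (SE, n = 3 males per genotype; limma, adjusted p = 0.0014), so the fertile hybrid was the further from the species.

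The 1 gene above that differed was ENSMUSG00000049422. On the log2 scale the *DxD* males stood at 9.25, 9.21 and 9.26, and the *MxM* males at 9.34, 9.18 and 9.29. The *DxM* hybrids stood at 9.52, 9.45 and 9.49, and the *MxD* hybrids at 9.84, 9.94 and 9.94. The *MxD* males were 0.42 ± 0.06 over the *DxM* males (SE, n = 3 males per genotype; limma, adjusted p = 0.0039). The order of the 4 genotypes had no overlap between the species, the fertile hybrid and the sterile hybrid.

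**Figure D4:**
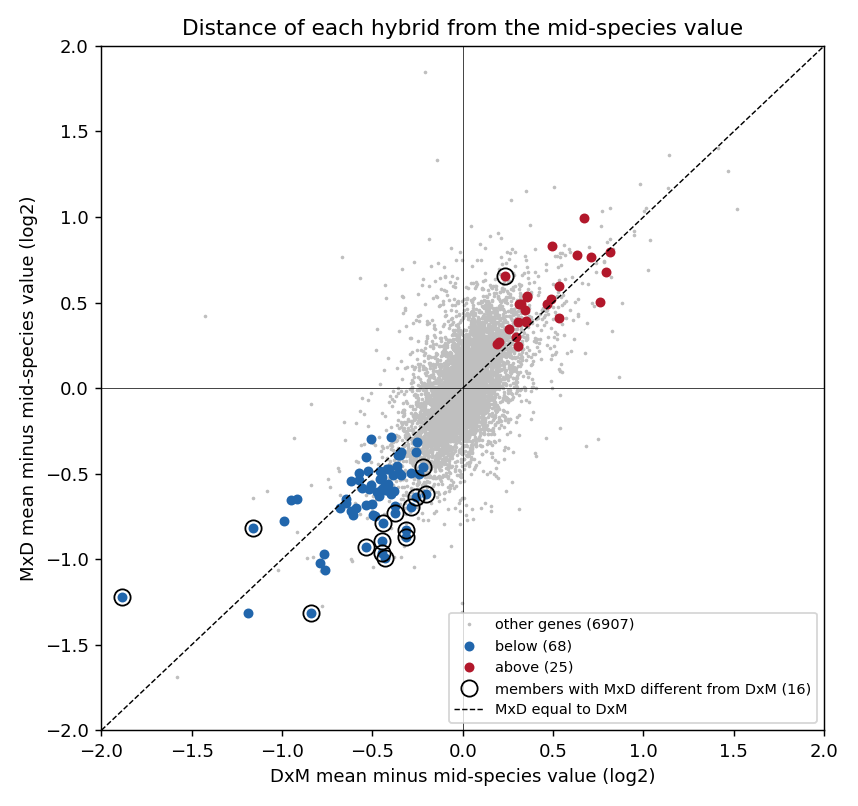
Mean of *DxM* (horizontal) and of *MxD* (vertical) minus the mid-species value, in log2 units, for the 68 genes below (blue), the 25 above (red) and other genes (grey, 2 of them outside the limits). The dashed line marks equal hybrids and rings mark the 16 members that differed between hybrids. Of the blue points 56 lie under the line, and of the red points 20 lie over it.

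The within-species genotypes were compared in the same way. Of the 68 genes below, 20 (29.4%) differed between *MxM* and *DxD* (limma, adjusted at 5%), against 31.9% of all genes, 12 of them higher in *MxM* and 8 lower. Of the 25 above, 3 (12%) differed, 2 higher and 1 lower. The share below was near that of all genes, and the rule favours genes with a narrow range over the within-species males. In the 20 genes below, the *DxM* mean was -1.04 to -0.19 log2 units from the nearer species and the *MxD* mean -1.0 to -0.24, with medians of -0.35 and -0.47. The count below was 12 without *DxD* replicate 1, 8 without *DxD* replicate 2, 12 without *DxD* replicate 3 and 13 without *MxM* replicate 2. Over all genes those fits called 1802, 1667, 1683 and 1871, against 2230 in the main fit. The count above was 0 without any 1 of the *DxD* males, with 3 or 4 genes at an unadjusted p under 0.05 in limma, and 1 without *MxM* replicate 2 or *DxM* replicate 1.

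ENSMUSG00000019878 was a gene below both species although the species differed. Log2 values in the *DxD* males were 7.59, 7.90 and 7.99 against 8.22, 8.54 and 8.62 in the *MxM* males. Those of the hybrids were 6.71, 6.92 and 7.24 for *DxM* and 6.5, 6.78 and 7.21 for *MxD*. *MxM* was 0.63 ± 0.19 higher than *DxD* (SE, n = 3 males per genotype; limma, adjusted p = 0.026), while both hybrids were under both. Without *DxD* replicate 1 or 2, or *MxM* replicate 2 or 3, the species difference was 0.52 to 0.67 with an adjusted p of 0.053 to 0.098.

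In ENSMUSG00000072983 the species also differed, with values of 8.19, 8.31 and 8.27 in *DxD* and 8.92, 8.91 and 8.58 in *MxM*. The hybrid values were 7.57, 7.49 and 7.68 in *DxM* and 7.72, 8.01 and 7.89 in *MxD*. *MxM* was 0.55 ± 0.11 higher than *DxD* (SE, n = 3 males per genotype; limma, adjusted p = 0.0022).

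The reverse order of the species was seen in ENSMUSG00000053347, with values of 6.85, 7.07 and 7.08 in *DxD* and 6.21, 6.48 and 6.75 in *MxM*. The hybrid values were 5.74, 6.08 and 6.03 in *DxM* and 5.57, 5.71 and 5.87 in *MxD*. *MxM* minus *DxD* was -0.52 ± 0.14 (SE, n = 3 males per genotype; limma, adjusted p = 0.015), and the adjusted p was 0.056 without *DxD* replicate 2 and 0.058 without *DxD* replicate 3.

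Above both species, ENSMUSG00000035726 had the greatest species difference. The 3 *DxD* males read 8.71, 8.81 and 8.69 on the log2 scale, and the *MxM* males 8.41, 8.28 and 7.10. Among hybrids, *DxM* read 9.02, 9.03 and 9.08 and *MxD* 9.19, 8.94 and 9.18. *MxM* minus *DxD* was -0.81 ± 0.26 (SE, n = 3 males per genotype; limma, adjusted p = 0.035). *MxM* replicate 3 set much of its size, which was -0.39 without that male, and the adjusted p was 0.074 to 0.095 without any 1 *DxD* male.

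The cell type in which a gene is most strongly induced was taken from the study's annotation and counted without a test. Only the part of it at hand was used, 1997 genes on chromosomes 1 to 5, of which 19 were members below and 7 above, which is 0.951% and 0.351%. Among the 1102 genes with any stated cell type, 16 were members below (1.45%) and 4 above (0.363%). Postmeiotic genes, which are most induced in round spermatids, held 10 of the members below among 269 (3.72%) and 0 above. Meiotic genes held 4 below and 2 above among 324, mitotic genes 0 below and 2 above among 367, and somatic genes 2 below and 0 above among 142. The study's somatic class stands for Sertoli cells, and Leydig cells have no class in it. No cell type was stated for the other 3 members below and 3 above.

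The 10 postmeiotic members were low in both hybrids, as the rule requires. Their *DxM* means lay -0.92 to -0.22 log2 units from the mid-species value, with a median of -0.47, and their *MxD* means -0.96 to -0.46, with a median of -0.66. *MxD* was the lower in 9 of the 10, and 2 differed between the hybrids. The 259 postmeiotic genes that are not members had a median of -0.0012 in *DxM* and -0.21 in *MxD*, so postmeiotic genes as a class were lower in the sterile hybrid and near the mid-species value in the fertile one. By the paper's histology, postmeiotic cells were greatly reduced in *MxD* testes and not in *DxM*. The part of this reduction, or of the class shift, in the members' *MxD* values was not tested. Members were chosen on these values and the other genes did not meet the rule, so the distance between them is not a test.

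The other classes held few members, and there too members and other genes were separated by the rule. The 4 meiotic members below lay -1.89 to -0.24 from the mid-species value in *DxM* and -1.22 to -0.50 in *MxD*, where other meiotic genes had medians of -0.02 and -0.07. The 2 mitotic members above lay 0.30 and 0.76 over it in *DxM* and 0.38 and 0.50 over it in *MxD*, where other mitotic genes had medians of 0.07 and 0.23. The 2 somatic members below had *DxM* values of -1.16 and -0.65 and *MxD* values of -0.82 and -0.67, where other somatic genes had medians of 0.02 and 0.12.

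**Figure D5:**
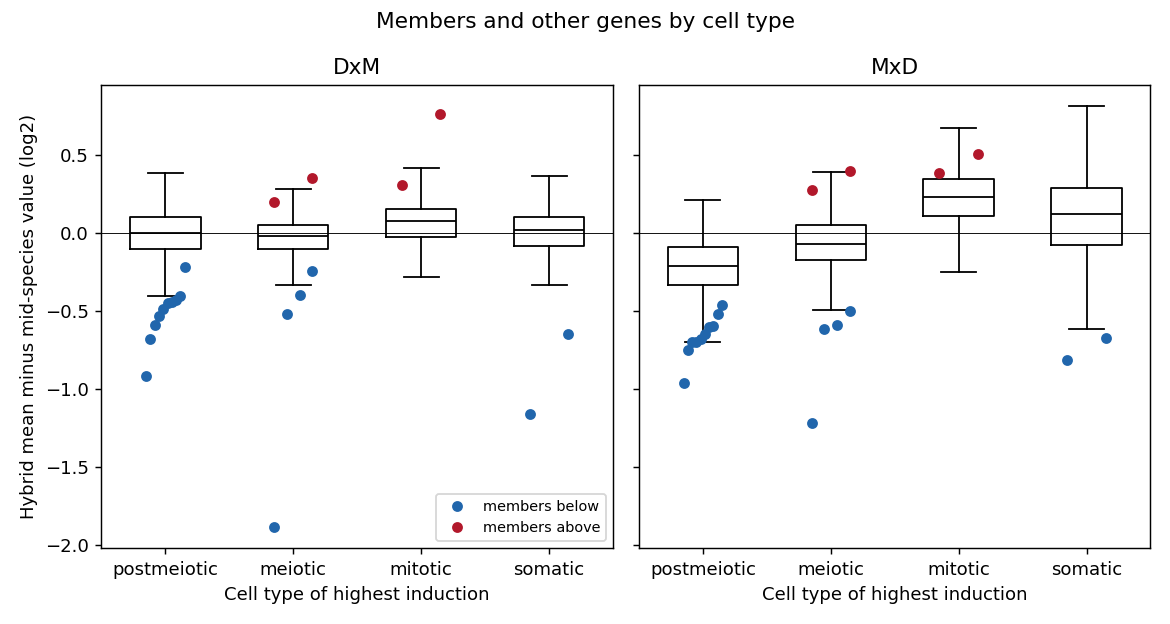
Hybrid mean minus the mid-species value in log2 units, for *DxM* (left) and *MxD* (right), by the cell type of highest induction. Boxes show genes that are not members (median, quartiles and whiskers to 1.5 times the interquartile range), and points are members below (blue) and above (red). The postmeiotic box is centred near 0 in *DxM* and at -0.21 in *MxD*. The 10 postmeiotic members, which the rule chose for low hybrid values, lie at or under -0.22 in both.

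By chromosome, 4 members below and 4 above were among 415 annotated genes of chromosome 1, 6 and 1 among 589 of chromosome 2, 3 and 1 among 361 of chromosome 3, and 0 and 1 among 435 of chromosome 4. Chromosome 5 held 6 below and 0 above among 197, all of them with a stated cell type, so its share is not comparable with the others. Positions of the remaining members were not used here. Of the markers for other testis cells, the level of 1 could be read: Cyp17a1, a Leydig cell enzyme of androgen synthesis on chromosome 19. It could be read because it is in the study's list of 45 sterility-correlated genes. The study chose these on the same males, as postmeiotic genes higher or mitotic genes lower in sterile *MxD*. The log2 level of Cyp17a1 was 10.1 ± 0.41 in *DxD* and 9.97 ± 0.63 in *MxM* males. In the hybrids it reached 10.6 ± 0.14 (*DxM*) and 11.2 ± 0.06 (*MxD*; mean ± SD, n = 3 each). It was highest in *MxD*, but a difference of *MxD* from fertile genotypes was a condition of that list. By the terms of that list, a gene higher in *MxD* is annotated as postmeiotic. The annotation that gave the postmeiotic members here thus classes this Leydig cell enzyme as postmeiotic. The range of Cyp17a1 in *DxM* overlapped those of the species, and the part of Leydig cell content in the members' values was not tested.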

How the data were processed

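Gene-level signals were made by the authors with PLIER, per their methods, on BRAINARRAY (version 11) probe definitions. They retained genes with detectable expression in each of the 12 males and applied quantile normalization. Detection required the perfect match signal to exceed the mismatch signal, so a gene silent in any male is not among them. The log2 values deposited by the authors were used unchanged for 7000 genes, and all sample columns were used. Precision is limited by the number of arrays, which have no read depth.

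The members and lists were chosen with earlier results of these data known. Differences between *MxD* and *DxM* and between *MxM* and *DxD* were tested two-sided with limma (3.58.1; R 4.3.3), using genotype means of all 12 males and Benjamini-Hochberg adjustment over all 7000 genes. The fit was first tested on simulated data with known changes. To check pairing, each male's deviation from its genotype mean was correlated across genes with that of the male of the same number. Between *DxM* and *MxD* the correlations were 0.756, 0.565 and 0.411, and between *DxD* and *MxM* 0.568, 0.0744 and 0.313. Between other genotypes they ran from -0.051 to 0.754. Males of different numbers are not given as a baseline, and the labels state no pairing. Whether the numbers pair the males is thus not settled. The SEs and adjusted p-values of named genes are from the fit without replicate numbers. With these numbers as blocks, the named hybrid differences that were called stayed past the threshold (limma, adjusted p = 0.00066 to 0.0083). That of ENSMUSG00000024728 stayed uncalled (limma, adjusted p = 0.070).

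Cell types (from GermOnline, per the methods) and chromosomes (Ensembl version 52) came from the study's annotation, of which only the 1997 genes at hand were used. Symbols were paired with IDs only for 45 sterility-correlated genes that the study listed, none of them a member. Of 21 planned marker and pathway lists, this reached 1 gene, Cyp17a1, so the lists were not used, and neither were promoter sequences. The planned rule named the genes with the widest gaps and the greatest differences past the threshold. Without symbols, at most 2 IDs in each direction were named for each comparison. Alternatives were other margins, the methods' t-test, fits with a replicate block or of only 2 genotypes, repeated normalization or centring, a robust prior with a trend, leaving out the dimmest 25% of genes, and leaving out single males. Another 3, all about *MxM* replicate 3, were chosen after seeing the data. Python 3.11.15 and matplotlib 3.10.9 drew the figures.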

Additional observations from a re-analysis of the deposited data

Results flagged for a closer look

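Of the 16 members that differed between the 2 hybrids by limma's test of *MxD* minus *DxM*, 4 were named. Their difference was -0.56 log2 units in ENSMUSG00000032802, -0.55 in ENSMUSG00000022938, 0.67 in ENSMUSG00000027827 and 0.42 in ENSMUSG00000049422. In ENSMUSG00000027827 the fertile hybrid lay further from the species, and in the other 3 the sterile hybrid did.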

How the results depend on the processing

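Members depended on the margin: with 0 there were 218 below and 98 above, and with 0.2 there were 25 and 7. Without the dimmest 25% of genes there were 43 below. With all 4 males numbered 1 removed there were 172 below and 62 above. With 1 male left out in turn there were 73 to 101 below and 27 to 44 above, where the members stay by construction, since fewer males only relax the rule. Centring the arrays gave 70 below, of which 68 were shared, and 23 above, all shared. For the hybrid difference, the methods' t-test, adjusted, called 0 genes below with unequal variances (18 at an unadjusted p under 0.05) and 1 with equal variances. Above it called 0 with either (6 and 7 unadjusted). Over all 7000 genes it called 0 and 9 (1050 and 1295 unadjusted), so its adjusted counts say little about the members. In limma at an unadjusted p under 0.05 there were 25 below and 5 above, against 1528 of all genes. With the replicate block there were 2 above, against 1201 of all genes. Leaving out 1 male gave 8 to 18 below and 1 to 3 above, against 172 to 667 of all genes.

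For the species difference below, the fit of only the 2 genotypes gave 13, the t-test 1 (unequal variances) and 7 (equal), and removal of the dimmest genes 12, with 8 to 19 when 1 male was left out. Above, the fit of only the 2 genotypes gave 0 (4 unadjusted, limma) and the t-test 0 (2 unadjusted) and 1. Limma at an unadjusted p gave 7 above, and leaving out 1 male 0 to 3. Over all genes the fit of only the 2 genotypes called 1807, and the t-test 468 (unequal variances) and 1377 (equal). Limma at an unadjusted p called 2923, removal of the dimmest genes gave 1601, and leaving out 1 male 1667 to 2554. The replicate block gave 25 below and 5 above, against 3109 of all genes. Same-numbered within-species males varied together unevenly, with correlations of 0.0744 to 0.568. With a margin of 0, the order recurred in 83.0% below and 73.7% above for replicate 1, 76.7% below for replicate 2, and 71.8% below and 41.0% above for replicate 3. With the margin of 0.1 and read without *MxM* replicate 3, the shares for replicate 3 were 95.7% below and 87.6% above. All 8 named differences called by limma missed the threshold in the t-test with unequal variances (adjusted p = 0.101 to 0.370), and that of ENSMUSG00000035726 also did in the fit of only the 2 genotypes (adjusted p = 0.124). None of these 8 changed sign under the alternatives run. The hybrid difference of ENSMUSG00000019791, which was not called, ran from -0.09 to 0.04. All counts rest on 3 males per genotype, and dim members have the least signal over background.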
